A study of Drosophila melanogaster with 4 samples.

Results

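The genes described here are those named for proteins of the cytoplasmic ribosome of Drosophila melanogaster. They were taken by their symbol in the array's annotation, as RpL or RpS followed by a digit, or as RpLP0, RpLP1, RpLP2 or sta. The rule found 38 genes, measured by 51 probes, among 13891 features (11980 named genes and 1911 probes without a single gene name). By symbol, 23 of the 38 were counted with the large subunit and 15 with the small subunit. The 23 include 3 genes whose symbol ends in -like, which may not all encode parts of the finished ribosome. The current gene table holds 92 genes of this description, so 54 of them, sta and RpS6 included, had no singly named probe and were not analysed here. A further 2 probes name RpL15 together with Dbp80 and were left out.

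Larvae carrying the invadolysin allele 4Y7 were compared with larvae of the Canton S wild type, from stocks kept at 25 degrees. Invadolysin is a zinc metalloprotease. Each of the 4 arrays held total RNA of 1 mutant and 1 wild-type sample, labelled with Cy5 and Cy3. Replicates 1 and 4 had the mutant labelled with Cy5, and replicates 2 and 3 had it labelled with Cy3. The submitters call the 4 arrays biological replicates but name no separate cultures or animals, so the p-values bear on these samples only. Those from limma set a mean ratio against the spread between arrays, which includes any dye effect where no dye term is fitted. No source used here gives the tissue, the number and age of the larvae or the lesion of 4Y7. The Invadolysin probe had log2 ratios of -0.12, 0.11, 0.16 and 0.25 on replicates 1 to 4 and did not differ detectably (limma adjusted p = 0.761), so it is no check on the labels.

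Each value is the log2 ratio of the mutant to the wild type. The direction is a likely one, read from how the titles are worded, and with the opposite direction every "higher" would read "lower". That the ratios of the dye-swapped arrays had been given 1 direction was read from the values, since over all features replicate 1 correlated with replicates 2 and 3 at r = 0.40 each. Directions and ranks of genes below hold for the ratios as deposited. The main ones are given again with replicates 2 and 3 at the opposite sign. Replicate 4 stood apart: over all features it correlated with replicates 1, 2 and 3 at r = 0.22, 0.039 and 0.041, against 0.65 between replicates 2 and 3. They are taken over genes within arrays, and genes are no independent replicates.

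The ribosome translates messenger RNA with a small subunit, which reads the codons, and a large subunit, which joins the amino acids. Its proteins are needed in near-equal amounts, their messages are among the most abundant in a growing larva, and production of them follows nutrient signalling through the TOR kinase. In Drosophila, loss of 1 copy of many of these genes gives the Minute phenotype of slow development and short bristles. Several of the proteins are encoded by a pair of similar genes, of which one is often used mainly in the germ line.

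No ribosomal protein gene passed the threshold, and as a group the genes lay slightly lower in the mutant on both arrays with the mutant in Cy3 but not on those with it in Cy5. In limma, 0 of the 38 genes had an adjusted p under 0.05, against 0.821% of all features. At an unadjusted p under 0.05 there were 7 genes (18.4%), against 19.2% of all features. Of these, 2 were higher, against 7.91% of all features, and 5 were lower, against 11.3%. These shares lie near the background. The mean over the 38 genes was -0.021, -0.22, -0.48 and -0.00035 on replicates 1 to 4, which gives -0.18 ± 0.22 (SD of array means, n = 4). The spread between arrays was thus larger than the mean itself. The median of the genes' mean ratios was -0.14, against 0.015 over all features.

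Gene by gene, 26 of the 38 had a mean below 0 (68.4%, against 48.5% of all features) and 12 a mean above 0. With replicates 2 and 3 at the opposite sign, 10 were below 0 (26.3%, against 48.6% of all features) and 28 above. On replicates 1 to 4, 20, 27, 30 and 17 genes were below 0, while over all features the shares below 0 were 50.2%, 49.6%, 49% and 50.1%. The genes therefore split almost evenly on replicates 1 and 4 and leaned low on replicates 2 and 3. Replicate 3 was the lowest of the 4 arrays for 20 genes (52.6%, against 26.1% of all features), and replicate 4 the highest for 20 (52.6%, against 37.1%). Only 6 genes kept 1 sign on all 4 arrays (15.8%, against 28.9% of all features). RpL28, RpL37-1, RpLP0, RpS12 and RpS20 were below 0 on every array (13.2% of the 38, against 14.9% of all features). RpL7-like was above 0 on every array, against 14% of all features.

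**Figure D1:**
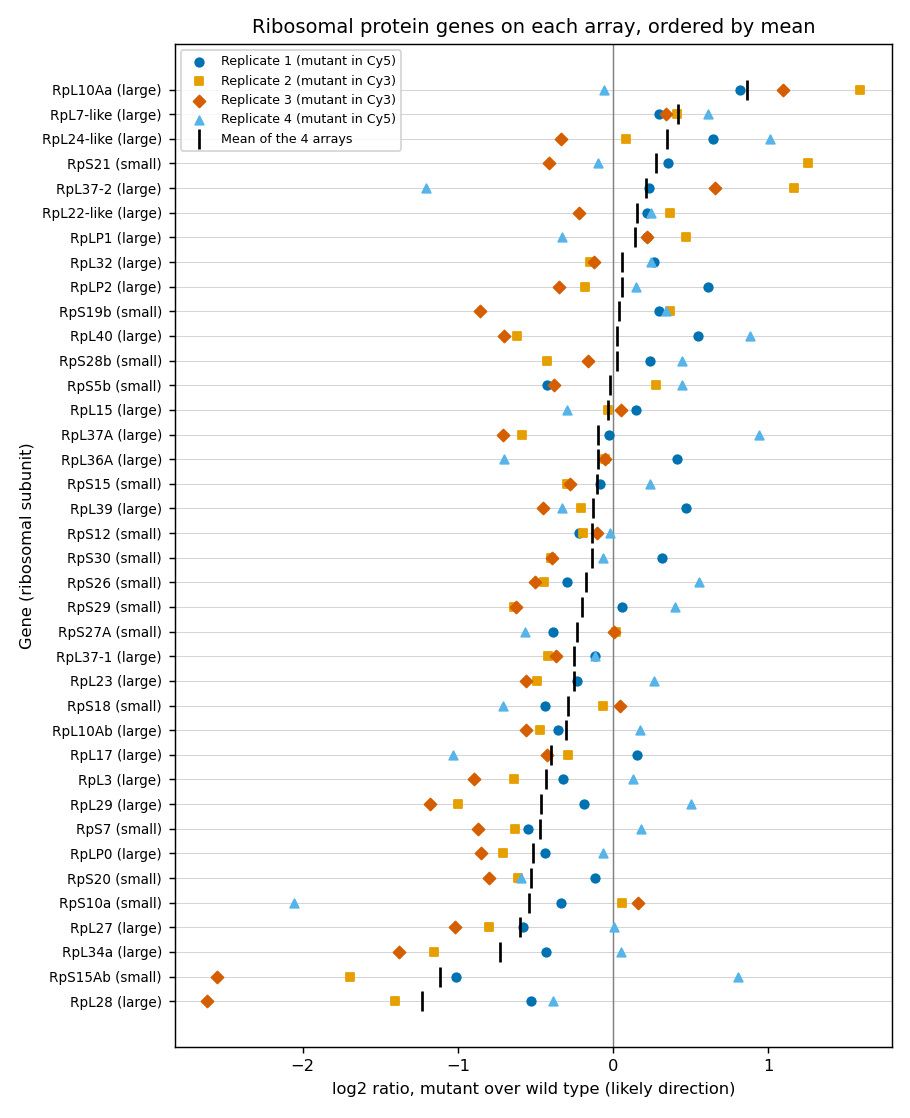
Log2 ratio of mutant over wild type for each of the 38 ribosomal protein genes (vertical axis, ordered by mean) on each of the 4 arrays (coloured symbols), with the mean as a black tick. Squares and diamonds (replicates 2 and 3) lie mostly left of triangles (replicate 4), and means run from -1.23 for RpL28 to 0.86 for RpL10Aa.

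Among large-subunit genes, RpL28 had the lowest mean of all 38 in the ratios as deposited. Its log2 ratios were -0.53, -1.40, -2.61 and -0.38 on replicates 1 to 4. The average of its 2 probes was below 0 on every array, and most so on the arrays with the mutant in Cy3. The mean was -1.23 ± 1.03 (SD, n = 4), with a 95% interval of -2.17 to -0.30 and a limma adjusted p of 0.172. With replicates 2 and 3 at the opposite sign its mean was 0.78, near the upper end of the genes. RpL34a, 1 of a pair of genes for this protein, stood at -0.43, -1.15, -1.38 and 0.048, and RpL27 at -0.58, -0.80, -1.02 and 0.0038. Both were low on replicates 1 to 3 and at about 0 on replicate 4. Their means were -0.73 ± 0.66 and -0.60 ± 0.44 (limma adjusted p = 0.228 and 0.214).

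RpL3 encodes a protein that reaches towards the peptidyl transferase centre, where peptide bonds are formed. Its values of -0.32, -0.64, -0.90 and 0.13 followed the same order of arrays, with a mean of -0.43 ± 0.44 (limma adjusted p = 0.33). RpL32, a common reference gene in fly expression studies, had values of 0.26, -0.15, -0.12 and 0.25. It was above 0 on both arrays with the mutant in Cy5 and below 0 on both others, at a mean of 0.060 ± 0.23. The 95% interval of RpL32 ran from -0.35 to 0.47, so a ratio of 0 and modest changes in either direction lie within it.

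The acidic stalk of the large subunit recruits translation factors, and RpLP0 forms its base while RpLP1 and RpLP2 form its arms. RpLP0 had log2 ratios of -0.44, -0.71, -0.85 and -0.063, below 0 on every array, with a mean of -0.52 ± 0.35 (limma adjusted p = 0.228). RpLP1 had values of 0.22, 0.47, 0.22 and -0.33, and RpLP2 values of 0.61, -0.18, -0.35 and 0.15. The arm proteins' genes thus lay on both sides of 0, at means of 0.14 ± 0.34 and 0.058 ± 0.42 (limma adjusted p = 0.71 and 0.902).

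Among small-subunit genes, RpS15Ab was lowest in the ratios as deposited. Its log2 ratios were -1.01, -1.69 and -2.55 on replicates 1 to 3 but 0.80 on replicate 4. The mean of -1.11 ± 1.42 therefore had an interval that includes 0 (-2.36 to 0.13, limma adjusted p = 0.302). With replicates 2 and 3 at the opposite sign the mean of RpS15Ab was 1.01, the highest of the 38. RpS20 was below 0 on every array, at -0.11, -0.61, -0.80 and -0.59, with a mean of -0.53 ± 0.29 (limma adjusted p = 0.198). RpS7 stood at -0.55, -0.63, -0.87 and 0.18, again high on replicate 4 alone, with a mean of -0.47 ± 0.45 (limma adjusted p = 0.303). RpS29 and RpS15 had means of -0.20 ± 0.52 and -0.11 ± 0.25.

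RpS12, which in Drosophila takes part in the recognition of Minute cells by their neighbours, had values of -0.22, -0.20, -0.10 and -0.019. They lay close together just below 0, with a mean of -0.14 ± 0.092 (limma adjusted p = 0.662). RpS21, long studied in flies as a growth regulator of the larval blood organ, had values of 0.35, 1.26, -0.41 and -0.10. Its high value on replicate 2 made up most of the mean of 0.27 ± 0.73 (limma adjusted p = 0.636).

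The 13 genes outside the rule for naming had means between -0.47 (RpL29) and 0.027 (RpL40), 12 below 0 and 1 above, with SDs from 0.16 to 0.81. Adjusted p in limma for these 13 ran from 0.387 to 0.972.

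Large and small subunit genes were close to each other on every array. The mean of the 23 large-subunit genes was 0.079, -0.22, -0.45 and 0.030 on replicates 1 to 4, and that of the 15 small-subunit genes was -0.17, -0.23, -0.52 and -0.047. Over the 4 arrays this gave -0.14 ± 0.25 for the large and -0.24 ± 0.20 for the small subunit. The difference, large minus small, was 0.25, 0.0069, 0.061 and 0.077 on replicates 1 to 4. It was above 0 on all 4 arrays, with a mean of 0.099 ± 0.11 that lies within 1 SD of 0, and replicate 1 carried most of it. Without replicate 1 the difference was 0.048. Leaving out the 3 genes whose symbol ends in -like, all of them counted with the large subunit, brought it to 0.032 ± 0.12. No test was made, because the members were chosen with results of these data known.

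**Figure D2:**
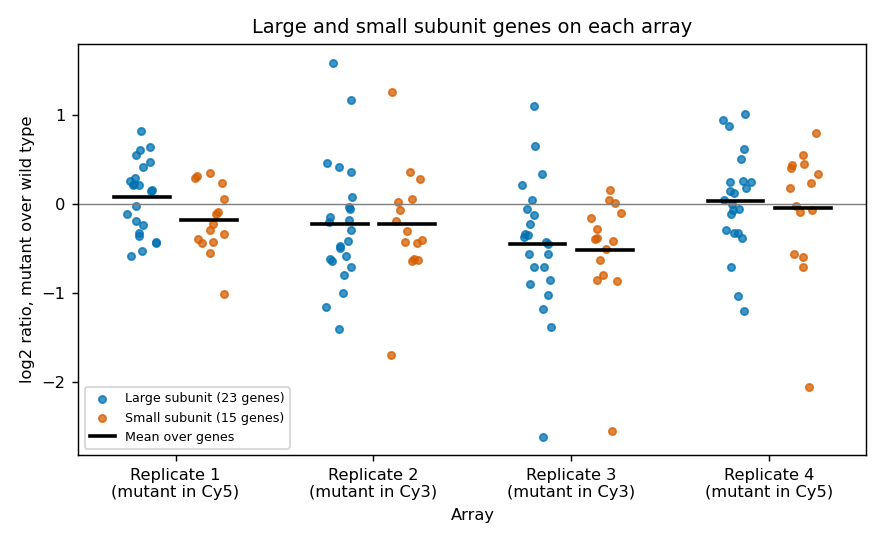
Log2 ratios of the 23 large-subunit genes (blue) and 15 small-subunit genes (orange) on each array, with black bars at the mean over genes. The bars of the subunits differ by 0.0069 (replicate 2) to 0.25 (replicate 1), and both are lowest on replicate 3.

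The 8 genes named as 1 of a duplicated pair by a final a or b (RpL10Aa, RpL10Ab, RpL34a, RpS5b, RpS10a, RpS15Ab, RpS19b and RpS28b) did not stand apart from the other 30 in their mean. On replicates 1 to 4 the duplicated genes had means of -0.15, -0.18, -0.58 and 0.017, and the others 0.014, -0.24, -0.45 and -0.0051. The difference was -0.054 ± 0.11, below 0 on replicates 1 and 3 and above 0 on replicates 2 and 4. The duplicated genes did vary more widely among arrays, with a median SD of 0.63 per gene, against 0.42 for the other 30 and 0.42 over all features. Of the 8, RpL10Ab alone had more than 1 probe, and averaging over probes can lower an SD. The other 30 hold more genes with several probes, such as RpS12 with 4. They also hold RpL37-1 and RpL37-2, copies marked by number. Probes for gene pairs may hybridise with both copies, so which copy a value belongs to is uncertain.

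RpL10Aa and RpL10Ab were the one lettered pair with both copies measured. RpL10Aa stood at 0.82, 1.59 and 1.10 on replicates 1 to 3 and at -0.060 on replicate 4, with the highest mean of the 38 genes as deposited (0.86 ± 0.69, a 1.82-fold ratio; 95% interval 0.18 to 1.55; limma adjusted p = 0.184). With replicates 2 and 3 at the opposite sign the mean of RpL10Aa was -0.48. RpL10Ab stood at -0.35, -0.47, -0.56 and 0.17, with a mean of -0.30 ± 0.33 (limma adjusted p = 0.426). On replicates 1 to 3 the copies thus lay on opposite sides of 0, and on replicate 4 they were close together and in the reverse order. The difference of RpL10Aa minus RpL10Ab was 1.17, 2.06, 1.66 and -0.23, with a mean of 1.16 ± 1.0. It was above 0 on 3 of 4 arrays, with an exact two-sided sign-flip p of 0.25. With 4 arrays that test cannot reach 0.05.

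RpL37-1 and RpL37-2, a second pair of copies that the annotation marks by number and not by letter, were set side by side after their values were seen. RpL37-2 had values of 0.23, 1.17, 0.66 and -1.21, and RpL37-1 had values of -0.11, -0.42, -0.37 and -0.11. Here too 1 copy was above the other on replicates 1 to 3 and below it on replicate 4. The difference of RpL37-1 minus RpL37-2 was -0.46 ± 1.16, with an exact sign-flip p of 0.5. Adjusted over the 2 pairs, both p-values were 0.5.

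**Figure D3:**
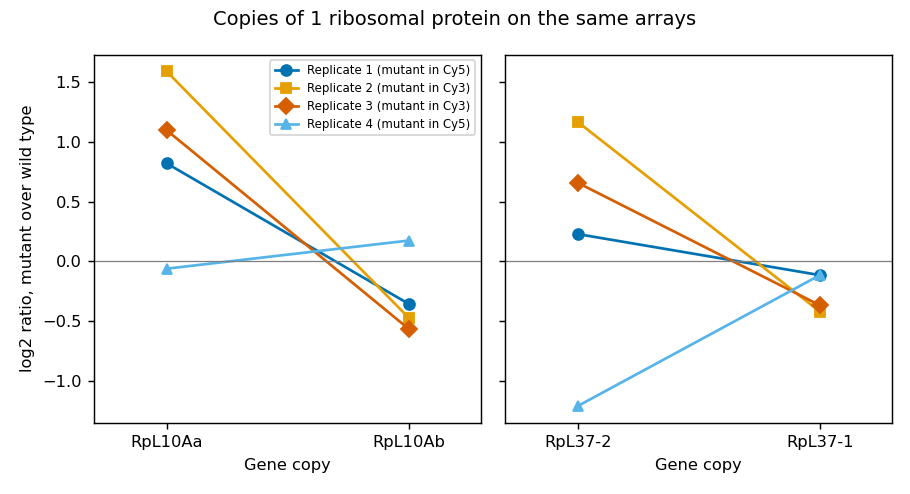
Log2 ratios of RpL10Aa with RpL10Ab (left) and of RpL37-2 with RpL37-1 (right), with a line for each array joining the copies. Lines of replicates 1 to 3 fall from left to right in both panels and that of replicate 4 rises.

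The remaining lettered genes were measured by 1 copy each. RpS10a was at -0.34, 0.056 and 0.16 on replicates 1 to 3 and at -2.05 on replicate 4, so that its mean of -0.54 ± 1.03 rested on a single array. RpS5b, a copy used mainly in the germ line in Drosophila, was at -0.43, 0.28, -0.38 and 0.44 (mean -0.021 ± 0.45). RpS19b, also known as a germ line copy, was at 0.29, 0.36 and 0.34 on replicates 1, 2 and 4 and at -0.85 on replicate 3. RpS28b had a mean of 0.022 ± 0.39. None of these 4 genes had a limma adjusted p below 0.479.

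The larval germ line forms a small part of the animal. Of 12 measured germ line markers 0 passed the threshold in limma in either direction, with 1, a higher one, at an unadjusted p under 0.05 (7.91% of all features), and their median was 0.13, with array medians from -0.040 to 0.34. Of 10 measured testis markers 0 passed, with 0 at an unadjusted p under 0.05, and their median was 0.058. In samples of whole tissue or animals, fewer cells of a type and less RNA per cell cannot be told apart.

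Of the -like genes, RpL22-like is a relative of RpL22 found mainly in the fly's germ line, and the yeast relatives of RpL24-like and RpL7-like act in the assembly of the large subunit and are not part of the finished ribosome. RpL7-like had log2 ratios of 0.30, 0.41, 0.34 and 0.61. It was above 0 on every array with little spread, at a mean of 0.42 ± 0.14 (95% interval 0.031 to 0.80; limma adjusted p = 0.235). RpL24-like was at 0.64, 0.080, -0.34 and 1.01 (mean 0.35 ± 0.60), and RpL22-like at 0.22, 0.36, -0.22 and 0.24 (mean 0.15 ± 0.26). The mean of the 3 -like genes was 0.31 ± 0.29, while the 27 genes that were neither -like nor lettered had a mean of -0.22 ± 0.21. With replicates 2 and 3 at the opposite sign these means were close, at 0.20 ± 0.39 and 0.17 ± 0.27, and that of RpL7-like was 0.039. The comparison of the -like genes with the 27 was made after the values were seen.

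The dye orientation of the array moved with the ratios of many ribosomal protein genes. The mean of the 38 genes was -0.011 where the mutant was in Cy5 and -0.35 where it was in Cy3. For 28 of the 38 genes the values of the 2 orientations did not overlap (73.7%, against 54% of all features). In 22 of these both arrays with the mutant in Cy3 were below both others (57.9%, against 27.9% of all features), and in 6 they were above (15.8%, against 26.1%).

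The difference between orientations was also tested per feature with limma, 2 arrays against 2. It passed for 0 of the 38 genes, against 0% of all features. At an unadjusted p under 0.05 it gave 8 genes (21.1%), against 15.9% of all features, and in all 8 the value with the mutant in Cy5 was the higher one, against 6.75% of all features in that direction and 9.14% in the other. RpL40, whose protein is made as a fusion with ubiquitin, was among them and is named after its values were seen. Its log2 ratios of 0.55, -0.62, -0.70 and 0.88 were on opposite sides of 0 in the 2 orientations, and the difference was 1.38 (limma unadjusted p = 0.00488, adjusted p = 0.295). Those of the 8 under the rule for naming were RpS29, RpL24-like, RpL34a, RpL28 and RpS15Ab. They differed by 0.86, 0.96, 1.08, 1.55 and 2.02 in the same direction (limma adjusted p = 0.299 for RpS15Ab and 0.295 for each of the others). The means over 4 arrays hold both orientations equally, so a dye term in the fit leaves the genes' ratios as they are. With that term limma called 0 of the 38, against 0% of all features, and 11 had an unadjusted p under 0.05 (28.9%), against 25.5% of all features.

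**Figure D4:**
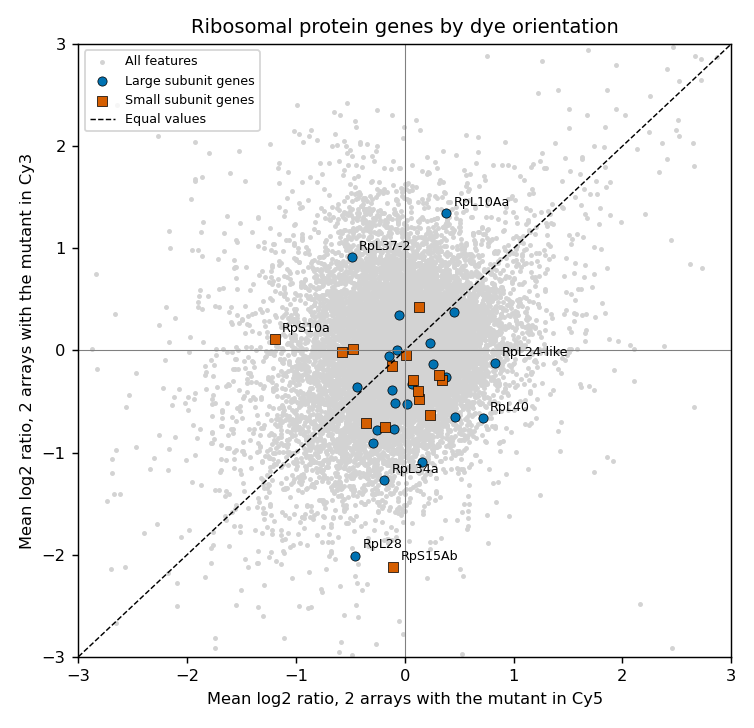
Mean log2 ratio of both arrays that carry the mutant in Cy5 (horizontal) or in Cy3 (vertical) for all features (grey) and for large (blue circles) and small (orange squares) subunit genes. Most ribosomal protein genes lie below the dashed line of equal values, and 115 features lie outside the plotted range of -3 to 3.

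Calls among the ribosomal protein genes appeared where the arrays with the mutant in Cy3 had most weight. On those 2 arrays alone, limma called 13 of the 38 genes (34.2%), against 18.5% of all features. RpL10Aa was the 1 gene called higher, against 8.99% of all features, at 1.34. The 12 called lower, against 9.53% of all features, took in RpS15Ab at -2.12, RpL28 at -2.01, RpL34a at -1.27 and RpL27 at -0.91. On the arrays with the mutant in Cy5 alone, limma called 0 of the 38, against 0.0288% of all features. With array weights estimated by limma, which ran from 0.232 for replicate 4 to 5.47 for replicate 2, 19 of the 38 were called (50%), against 43.8% of all features. Of these 4 were higher and 15 lower, against 21.9% of all features in each direction. The weights were estimated from the same arrays and make the fit rest mostly on replicate 2. Without replicate 4, 14 of the 38 had an unadjusted p under 0.05 (36.8%), against 29.3% of all features, 2 of them higher (13.6% of all features) and 12 lower (15.7%), and 0 passed after adjustment, against 0.151%. A fit on 2 arrays of 1 orientation cannot separate a dye effect from the mutant's.

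With the values of the arrays with the mutant in Cy3 given the opposite sign, as would be right if the deposited ratios were not turned, the mean over the 38 genes was 0.17 ± 0.23 and limma called 0 of them. The direction of the group's small shift therefore turns with that assumption. Over all features limma called 114 in the ratios as deposited and 0 with the opposite sign. Of the 38 genes, 24 then had a mean of the other sign, 20 from below to above 0 and 4 from above to below. RpL34a moved from -0.73 to 0.54 and RpLP0 from -0.52 to 0.26, whereas RpS10a stayed low at -0.65. RpL37-2 had the lowest mean, -0.70. Across the 38 genes the arrays correlated at r = 0.82 between replicates 2 and 3, at 0.62 and 0.59 between replicate 1 and replicates 2 and 3, and at 0.065, -0.26 and -0.31 between replicate 4 and replicates 1, 2 and 3. Genes of 1 array share its dye labelling and hybridisation, so these values describe the arrays only.

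For 9 of the genes more than 1 probe was present, 22 probes in all, and these give a view of the error within a gene. The mean ratios of a gene's probes had the same sign in 8 of the 9 genes, the exception being RpS12, and the median distance between the lowest and highest probe mean was 0.22. Array by array the probes agreed less often: in 21 of 36 combinations of gene and array all probes of the gene had the same sign. RpS15 was the gene whose probes did so on all 4 arrays.

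The probes of RpS12 and RpL28 differed most. The 4 probes of RpS12 had means of -0.49 ± 0.52, -0.36 ± 1.08, 0.15 ± 0.58 and 0.16 ± 0.26, and on no array did all 4 have the same sign. The small SD of RpS12 as a gene is thus an average over probes that went in different directions. The probes of RpL28 had means of -1.71 ± 1.91 and -0.75 ± 0.54. The first of them stood at -4.23 on replicate 3 and at 0.34 on replicate 4, while the second was at -1.0 and -1.11 there. On replicate 1 the second was at 0.059, so neither probe of RpL28 was below 0 on every array. The high value of RpS21 on replicate 2 also came from 1 probe, at 2.35, with the other at 0.17.

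**Figure D5:**
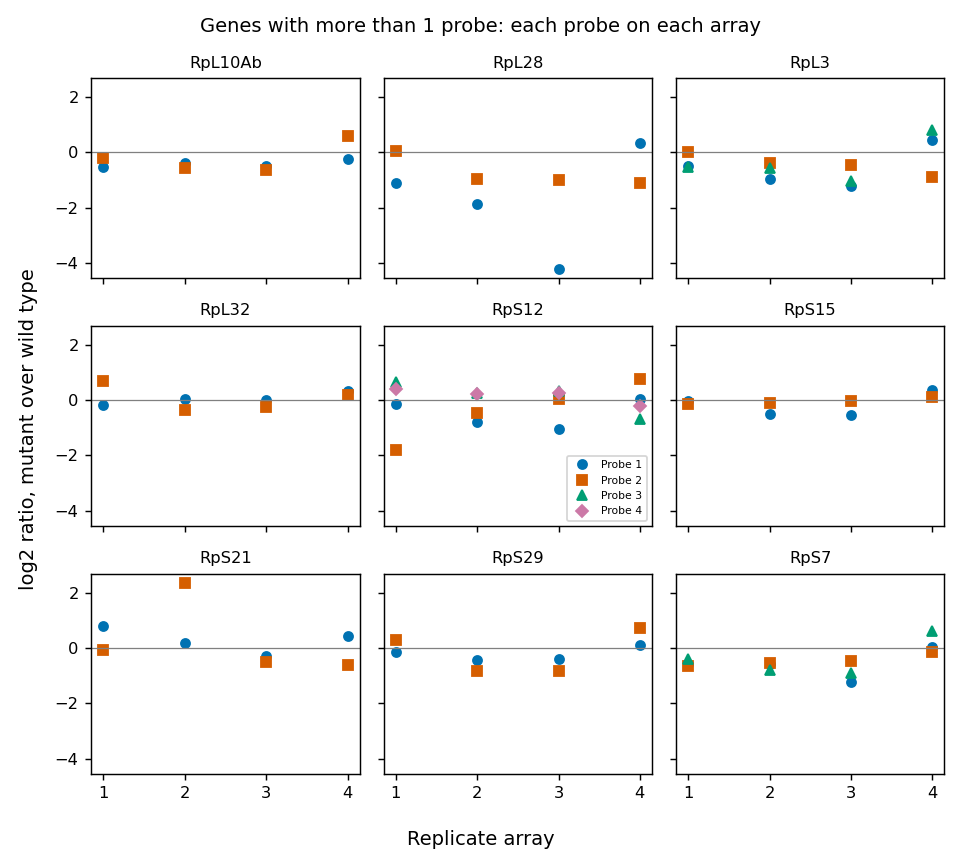
Log2 ratio of each probe (symbols, numbered by rising mean within a gene) on replicates 1 to 4 for the 9 genes with more than 1 probe. Probes of RpS15 have the same sign on each array, whereas those of RpS12 on replicate 1 and of RpL28 on replicate 3 lie far apart.

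By chromosome arm, 13 of the genes lie on 3R, 9 on 2R, 8 on 2L, 5 on 3L and 3 on X. The median of the genes' means was -0.20, -0.13, -0.034, -0.30 and -0.25 on these arms. Each arm held genes on both sides of 0 apart from 3L. There all 5 (RpL28, RpLP0, RpL10Ab, RpS12 and RpL15) had means below 0, against 68.4% of the 38 genes and 48.5% of all features. RpL15 was near 0, at -0.033 ± 0.19. With replicates 2 and 3 at the opposite sign, 1 of the 5 was below 0 and 4 above.

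Genes that act with the ribosome were taken from lists. Of 10 genes listed for elongation, release and other ribosome-bound factors 0 were higher and 1 lower, against 0.396% of all features higher and 0.425% lower. The lower one was eRF3, the gene of a release factor (-1.07 ± 0.10, limma adjusted p = 0.0492). The median of the 10 was -0.42. At an unadjusted p under 0.05, 0 of the 10 were higher and 4 lower, against 7.91% and 11.3% of all features. Rack1, a protein bound to the small subunit, stood at -0.58 ± 0.31 without passing (limma adjusted p = 0.175). Of 30 ribosome assembly genes 1 was higher, Non1, a GTPase of large-subunit assembly (1.33 ± 0.13, limma adjusted p = 0.04), and 0 were lower. The list as a whole leaned low, with a median of -0.36. At an unadjusted p under 0.05, 1 of the 30 was higher and 11 lower, against 7.91% and 11.3% of all features. Rrp4, of the RNA exosome, stood at -0.98 ± 0.42 (limma adjusted p = 0.0873).

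In the other lists no gene passed the threshold in limma. Counts at an unadjusted p under 0.05 are given as higher and lower, where over all features 7.91% were higher and 11.3% lower. The 40 initiation factor genes had a median of -0.14 (0 higher and 6 lower), and the 8 genes of RNA polymerase I transcription, which makes the ribosomal RNA, a median of -0.30 (0 and 0). The 15 regulators of ribosomal protein gene expression had a median of 0.031 (2 and 0). REPTOR, a transcription factor held back by TOR, stood at 0.75 ± 0.22 and its partner REPTOR-BP at 0.67 ± 0.23, both above 0 on every array (limma adjusted p = 0.0955 and 0.12). Tctp, a growth gene, had values of 0.022, -1.11, -1.39 and 0.31, low on both arrays with the mutant in Cy3 only. The 13 genes of the response to ribosomal protein loss had a median of -0.031 (0 and 0), with Gcn2, a kinase activated by stalled translation, at 0.43 ± 0.28.

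The mitochondrial ribosome is a separate particle with its own nuclear genes, and in the ratios as deposited those lay lower than the cytoplasmic set on every array. Its 68 measured genes had array means of -0.74, -0.83, -1.02 and -0.34, with a mean of -0.73 ± 0.28. With replicates 2 and 3 at the opposite sign the array means there were 0.83 and 1.02, above the cytoplasmic 0.22 and 0.48, and the mean of the set was 0.19 ± 0.86. As deposited, 64 of the 68 had a mean below 0 (94.1%, against 68.4% of the cytoplasmic set and 48.5% of all features). In those ratios 0 of the 68 passed in limma as higher and 1 as lower, against 0.396% and 0.425% of all features. The lower one was mRpS16 (-1.32 ± 0.13, limma adjusted p = 0.040). At an unadjusted p under 0.05, 0 were higher and 49 lower, against 7.91% and 11.3% of all features. With replicates 2 and 3 at the opposite sign, 21 of the 68 had a mean below 0 (30.9%, against 48.6% of all features). This set was known beforehand to be low, and its difference from the cytoplasmic set was not tested.

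Tissue markers moved between arrays beside these values. The medians of 10 muscle genes were -0.64, -0.87, -1.20 and -0.076 on replicates 1 to 4, those of 14 gut genes 1.51, -0.65, 0.55 and -1.33, and those of 8 salivary gland genes 0.96, 1.03, 1.07 and 0.51. Of these 3 lists 0 genes passed in limma. At an unadjusted p under 0.05, 0 muscle genes were higher and 7 lower, 1 gut gene was higher and 3 lower, and 4 salivary gland genes were higher and 0 lower, against 7.91% of all features higher and 11.3% lower. The 5 fat body genes ran from a median of 1.06 on replicate 1 to -2.02 on replicate 3, and the 10 blood cell genes had a median of -0.30. The medians of 15 imaginal disc and 10 nervous system genes were -0.11 and 0.018. In these 4 lists too 0 genes passed in limma. At an unadjusted p under 0.05 there were 0 fat body genes, 3 blood cell genes and 2 imaginal disc genes, all 5 of them lower, and 1 nervous system gene, which was higher. The part of tissue content in the ribosomal protein ratios was not tested.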

How the data were processed

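The authors deposited 1 log2 ratio per probe and array for 14569 probes. No source used here states the base, centring, normalization or direction of the deposited log2 values. Their range led to base 2 being assumed, and the column medians were -0.0015, 0.0042, 0.013 and -0.00053. Per the labels, the dyes were put into cDNA with Klenow enzyme. Channel intensities were not used, which leaves background unexamined, and precision is limited by there being 4 arrays.

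Symbols came from the platform annotation, which can be old: 12658 probes had 1 symbol, 96 several and 1815 none, and the current gene table (Release 6 plus ISO1 MT) renewed 0 of them. Probes of a gene were averaged per array. A two-sided test of each feature's mean against 0 was made by lmFit and eBayes (limma 3.58.1, R 4.3.3), with Benjamini-Hochberg adjustment over all 13891 features, a threshold of 0.05 and prior degrees of freedom of 3.27. Differences between copies were tested by exact sign flips. The fit was tested on simulated data. Figures were drawn with matplotlib 3.10.9 in Python 3.11.15.

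Named genes were those with the 6 highest means, the 6 lowest means or the 6 smallest p, the stalk genes, lettered and -like genes and those with more than 1 probe. The members and lists were chosen with earlier results of these data known. The alternatives were centring, scale and quantile normalization between arrays, opposite signs for swapped arrays, a dye term, array weights, single probes, 1 replicate left out, 1 orientation alone, medians over genes, and other counts of the -like and paired genes. No sequence is shown.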

Additional observations from a re-analysis of the deposited data

Results flagged for a closer look

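Dixon's test for 4 values was applied to 47 values given above (each gene, the group means and the differences). It marked 1, RpS19b, whose value of -0.85 on replicate 3 lay far from the other arrays (0.29, 0.36 and 0.34). The gap made up 0.943 of the gene's range, above the 95% critical value for 4 values. Chance alone marks about 5% of such values, or 2.35 of 47. RpS19b had 1 probe, so no second probe bears on this value.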

How the results depend on the processing

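The number of called features depended on the arrays far more than on scaling. Against 114 calls, 0 were left with opposite signs for the swapped arrays (1053 at an unadjusted p under 0.05) and 0 with a dye term (3537). There were 4 with the mutant in Cy5 alone, 2573 with it in Cy3 alone and 6079 with array weights. Leaving out 1 replicate gave 0 to 21 (0 without replicate 1, 19 without 2, 17 without 3, 21 without 4). Centring, scale and quantile normalization and single probes gave 116, 99, 90 and 91. Of the 99 and 90, 54 and 55 were higher. Calls among the ribosomal protein genes were 0 under these settings, leaving out replicates included, other than 13 with the mutant in Cy3 alone and 19 with array weights. The count at an unadjusted p under 0.05 moved from 7 to 2, 1, 1 and 14 without replicates 1 to 4, while that over all features moved from 2670 to 2052, 1456, 1686 and 4077.

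The mean over the ribosomal protein genes ran from -0.24 to -0.082 with 1 replicate left out, and stood at 0.17 with opposite signs. That of duplicated minus single genes became 0.14 when the -like genes were counted as duplicated. With opposite signs, RpL10Aa minus RpL10Ab was -0.69 and RpL37-1 minus RpL37-2 was 0.84. Large minus small subunit moved by less than 1 SD under all alternatives run, from 0.017 (probes counted singly, chosen after seeing the data) to 0.16 (mutant in Cy5 alone). Each ratio already sets a mutant against the wild-type sample of the same array, so the test of the 4 ratios is a paired one and no further block was fitted.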
